A study of Mus musculus with 7 samples.

Results

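The genes described here are 35 mouse genes of the amino acid response, made up of the transcription factor gene Atf4, partner and feedback regulators, and genes that Atf4 is known to switch on. They were chosen by gene symbol for their function, with earlier results of these data known, from a table of 54838 genes. All 35 were found, and all 35 passed the low-count filter in each comparison, beside 18166 genes tested between the 2 kinds of colony and 20502 tested against embryonic stem cells. By role they were 11 stress regulators, 8 enzymes of amino acid and one-carbon synthesis, 8 amino acid transporters and 8 cytosolic tRNA synthetases.

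When an amino acid runs short, uncharged tRNA activates the kinase Gcn2, which phosphorylates the initiation factor eIF2. Most translation then slows, while translation of the Atf4 mRNA goes up, and the Atf4 protein pairs with C/EBP proteins to switch on genes that import, make and charge amino acids. Because Atf4 is controlled largely at translation, its mRNA level does not show how much protein is present. Mouse pluripotent stem cells grow fast and draw heavily on glutamine, serine, glycine and threonine.

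RNA was sequenced from 3 colonies titled M, 3 colonies titled GC and 1 culture of embryonic stem cells (ESC) of the mouse line V6.5, so the ESC group has no replicate. The colonies are induced pluripotent stem cells (iPSCs) reprogrammed with doxycycline from splenic germinal center B cells (B220+ CD38- Fas+) of male mice 9 days after immunization with SRBC. GC colonies came from those cells in bulk. M colonies are read as coming from those sorted for a Myc-GFP reporter expressed from the endogenous gene, the only other source the design text names. B cells were first held with cytokines for 6 days on embryonic fibroblasts, the feeder cells. After 10 days of reprogramming the colonies were kept 4 days without doxycycline, so each sample is 1 picked clone, passaged once without feeders and left to settle for 45 min so that remaining feeders stuck. All 3 groups were grown in KO-DMEM medium with serum and LIF, with no amino acid withdrawal or other stress named in the labels. Strain, donor mouse, the reprogramming genes and batch are not stated, and V6.5 did not pass through reprogramming or a B cell, so source, donor and culture history cannot be told apart. Nothing in the labels says that colonies came from separate mice, so p-values measure only the spread between these colonies.

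Totals ran from 31505623 to 33173123 counts in M colonies and from 31612440 to 35728921 in GC colonies, with 31139508 in ESC. All 12 pluripotency markers had counts in every library, with summed levels of 6515 to 7035 CPM (counts per 1000000, scaled by the TMM method) in M colonies, 6536 to 6842 CPM in GC colonies and 8853 CPM in ESC. Of the 24 fibroblast markers, 22 to 24 had counts in each library, summing to 4679 to 5534 CPM in M colonies, 4530.2 to 4943 CPM in GC colonies and 3285 CPM in ESC. The 15 B cell markers summed to 33.5 to 36.7 CPM in M colonies, 43.0 to 46.7 CPM in GC colonies and 47.6 CPM in ESC, with Ms4a1 at 0 in 6 of the 7 libraries. M colonies 2 and 3 stood apart in having 0 counts of the Y-linked genes Ddx3y, Uty and Eif2s3y. Eif2s3y encodes a Y copy of the gamma subunit of eIF2 and had 2040 counts in M colony 1, 1912 to 2371 in GC colonies and 200 in ESC. Its X-linked counterpart Eif2s3x was at 203, 205 and 188 CPM in M colonies 1 to 3, 188 to 221 CPM in GC colonies and 166 CPM in ESC. Some results are therefore also given without M colonies 2 and 3.

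The site that Atf4 binds with a C/EBP partner, the C/EBP-ATF response element, was looked for in the promoters of these genes as TGATGNAA, read on either strand (TTNCATCA on the gene's strand when the site lies on the other). RefSeq promoter windows on GRCm38.p6, running from 250 bases before to 50 bases after a transcription start, were held for 29 of the 35 genes. Slc1a5, Slc7a3, Slc7a5, Wars, Cars and Nars had no window. A match was present for 10 of the 29 genes (34.5%), against 4.51% of all 27025 genes with a window. A match describes the letters and does not show that the site is bound. The stretches printed are those of the 7 genes with a match that also differed between colonies and ESC, and of Trib3, each written 5′ to 3′ on the gene's strand with the match in capitals. Asns, Pycr1, Aars, Gars and Nupr1 were lower in colonies and Chac1 and Slc1a4 were higher, while Trib3 did not pass the test.
Asns, chr6:7693210-7693269, minus strand: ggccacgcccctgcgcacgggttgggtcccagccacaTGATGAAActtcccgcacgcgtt
Pycr1, chr11:120643818-120643877, minus strand: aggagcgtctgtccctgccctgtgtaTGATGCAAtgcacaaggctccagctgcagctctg
Aars, chr8:111033704-111033763, plus strand: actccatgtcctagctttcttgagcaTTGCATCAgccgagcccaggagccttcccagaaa
Gars, chr6:55037941-55038000, plus strand: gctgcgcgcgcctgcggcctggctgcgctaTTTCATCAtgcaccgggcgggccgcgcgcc
Nupr1, chr7:126625547-126625606, minus strand: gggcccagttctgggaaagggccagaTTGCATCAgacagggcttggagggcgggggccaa
Chac1, chr2:119351023-119351082, plus strand: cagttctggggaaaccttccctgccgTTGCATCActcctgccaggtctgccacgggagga
Slc1a4, chr11:20332710-20332769, minus strand: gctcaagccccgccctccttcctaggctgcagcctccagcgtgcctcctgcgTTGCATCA
Trib3, chr2:152344028-152344057, minus strand: ttagctcaggtTTACATCAgccgggcgggg

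In Asns the match began 23 bases before the RefSeq start site, and in Gars 30 bases before it. In Pycr1, Nupr1 and Aars it began 103, 110 and 112 bases before the start, and Aars had another within the transcript at base 10. In Chac1 it began 193 bases upstream, in Slc1a4 it spanned the start itself, and in Trib3 it lay within the transcript at base 15. RefSeq starts differ in places from the GENCODE gene positions given here. By GENCODE the Asns match lies within the gene, which ends at 7693254, and the Trib3 match outside its gene, which ends at 152344032. The remaining genes with a match were Vldlr, at 200 bases upstream, and Slc7a11, with 2 matches at 66 and 47 bases upstream. Of the 10 genes with a match, 5 fell, 2 rose and 3 did not pass between colonies and ESC. Of the 19 with a window and no match, 5 fell, 3 rose and 11 did not pass.

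**Figure D1:**
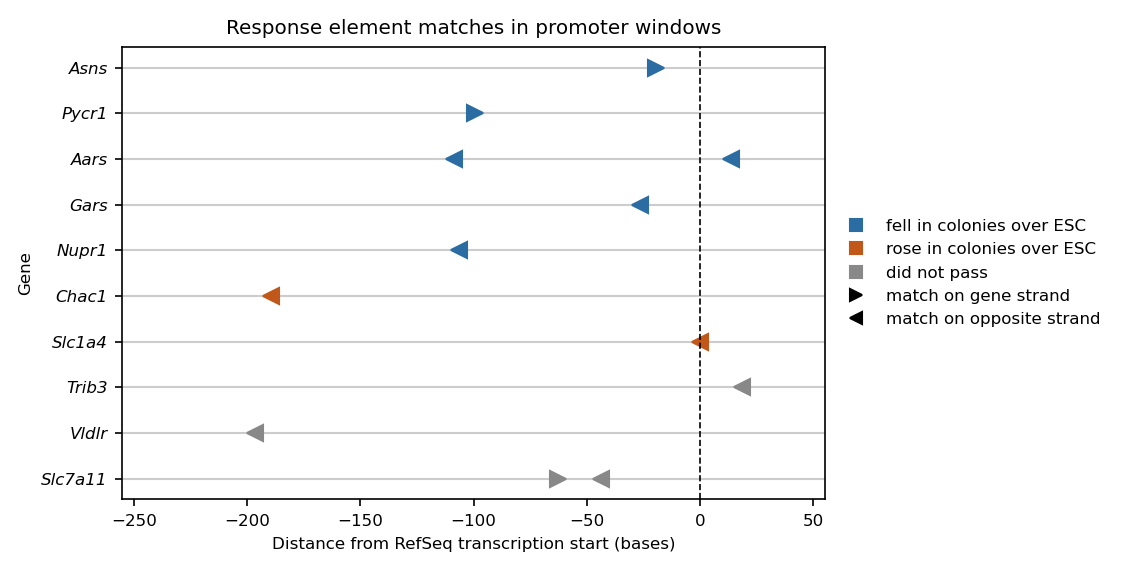
Position of each response element match (triangles, pointing along the strand on which TGATGNAA reads) in the promoter windows of the 10 genes with a match, as distance in bases from the RefSeq transcription start. Color gives the call in iPSC colonies over ESC, and the matches lie from 200 bases upstream of the start (Vldlr) to base 22 of the transcript (Trib3).

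Colonies were first compared with ESC, which asks how far reprogrammed cells match an established pluripotent line in this program. Synthesis enzymes stood lower in colonies, led by Asns (asparagine synthesis), Pycr1 (proline) and Shmt2 (serine to glycine). Transporters went both ways, with Slc1a5, Slc7a5 and Slc3a2 lower and Slc38a2, Slc7a1 and Slc1a4 higher. The synthetase genes Aars and Gars were lower, and among regulators Nupr1 was lower while Chac1 and Stc2 were higher. Atf4 mRNA itself was 354 ± 14.7 CPM in M colonies, 328 ± 17.4 CPM in GC colonies (SD, n = 3 each) and 345 CPM in ESC.

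With the mean of both kinds of colony set against ESC, 17 of the 35 genes (48.6%) passed the edgeR threshold of an adjusted p of 0.05, against 16.3% of all 20502 genes tested. Of these, 12 fell and 5 rose, where 7.56% of all genes fell and 8.76% rose. The median log2 change was -0.16 over the 35 genes and 0.02 over all genes tested. All 6 colonies lay on the same side of ESC for 26 of the 35 genes, below it for 18 and above it for 8, against 51.4% of all genes, 25.7% in each direction. Without M colonies 2 and 3, 14 genes passed, of which 10 fell and 4 rose. The ESC library was assumed to vary like the colonies. In whole cultures, fewer cells expressing a gene and less RNA per cell cannot be told apart. In the same comparison 13 of 22 tested fibroblast markers rose and 9 of 12 pluripotency markers fell, and their part in these differences was not tested.

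**Figure D2:**
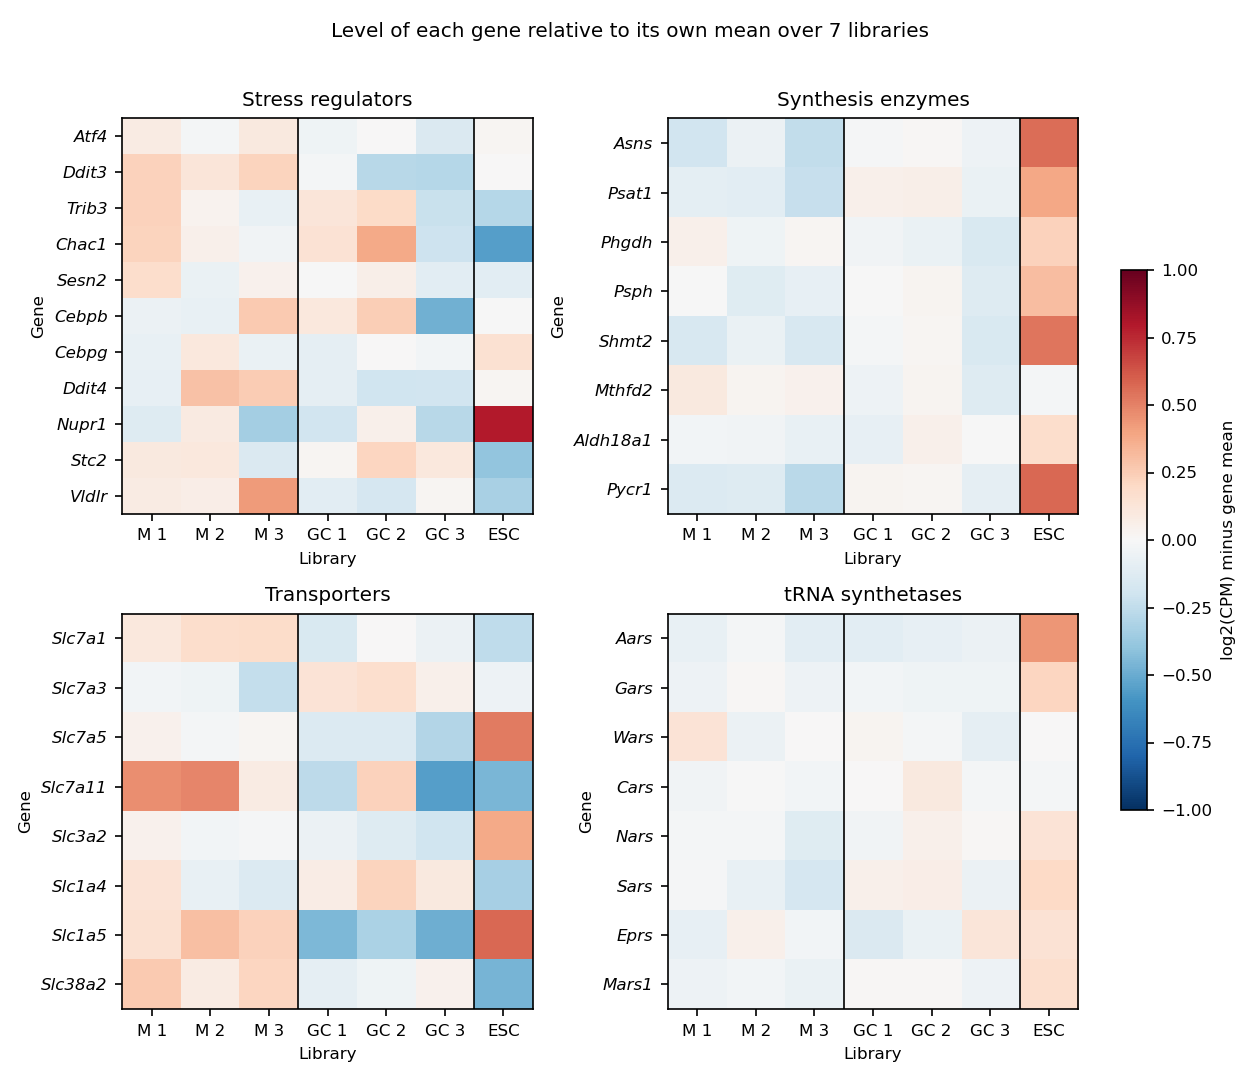
Level of each of the 35 genes in each library, as log2 CPM minus the gene's own mean over the 7 libraries (color), with M colonies, GC colonies and ESC from left to right and 1 panel per role. Among the enzymes the ESC column is red for all but Mthfd2, and among the transporters the Slc1a5 row is red in ESC, pale red in M colonies and blue in GC colonies.

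Of the 8 synthesis enzymes, 6 (75%) fell in colonies and 2 did not pass, with a median log2 change of -0.40. Of all genes tested, 7.56% fell. Asns, which makes asparagine from aspartate and glutamine (ENSMUSG00000029752, chromosome 6 from 7675169 to 7693254), was at 413, 454 and 399 CPM in M colonies 1 to 3, at 468, 477 and 456 CPM in GC colonies 1 to 3, and at 695 CPM in ESC. Every colony lay well below ESC, and the groups did not overlap. The log2 change was -0.65 ± 0.07 (SE), with an edgeR adjusted p of 7.41e-05. Shmt2, the mitochondrial enzyme that turns serine into glycine and feeds one-carbon units to folate, was at 277, 295 and 276 CPM in M colonies, at 305, 314 and 278 CPM in GC colonies, and at 447 CPM in ESC. It was lower in all 6 colonies, by a log2 change of -0.62 ± 0.08 (SE; edgeR adjusted p = 1.39e-04). Shmt2 shares 32 exon bases with Ndufa4l2 on the opposite strand, which had up to 4115 counts. Pycr1, which completes proline synthesis in mitochondria, was at 49.5, 49.6 and 45.2 CPM in M colonies, at 55.3, 55.1 and 51.0 CPM in GC colonies, and at 81.1 CPM in ESC. Again no colony reached ESC, and the log2 change was -0.67 ± 0.09 (SE; edgeR adjusted p = 2.68e-04).

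The 3 enzymes of the serine pathway, which branches from glycolysis, all fell. Phgdh, its first step, was 243 ± 7.82 CPM in M colonies, 228 ± 9.44 CPM in GC colonies (SD, n = 3 each) and 284 CPM in ESC. Psat1, its transaminase, was 463 ± 23.5 CPM in M colonies, 517 ± 25.2 CPM in GC colonies and 669 CPM in ESC, and Psph, its phosphatase, was 67.0 ± 2.71 CPM in M colonies, 68.5 ± 3.88 CPM in GC colonies and 86.9 CPM in ESC. The log2 changes were -0.27 ± 0.08 for Phgdh, -0.45 ± 0.08 for Psat1 and -0.36 ± 0.09 for Psph (SE; edgeR adjusted p = 0.0296, 0.00114 and 0.0175). Psph shares 452 exon bases with Cct6a on the opposite strand, and whether the count used strand is unknown, so its counts are uncertain. Leaving out GC colony 2, either of M colonies 2 and 3, or both of these ended the Phgdh call (edgeR adjusted p = 0.0682, 0.0539, 0.0547 and 0.0916), and leaving out both of M colonies 2 and 3 ended that of Psph (0.0619). Aldh18a1, which starts proline synthesis from glutamate, was 152 ± 2.77 CPM in M colonies, 156 ± 7.45 CPM in GC colonies and 177 CPM in ESC, and did not pass (edgeR adjusted p = 0.114). Mthfd2, the mitochondrial folate enzyme that follows Shmt2, did not share the lower level, with 179.8 ± 4.74 CPM in M colonies, 167 ± 8.78 CPM in GC colonies and 170.4 CPM in ESC.

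**Figure D3:**
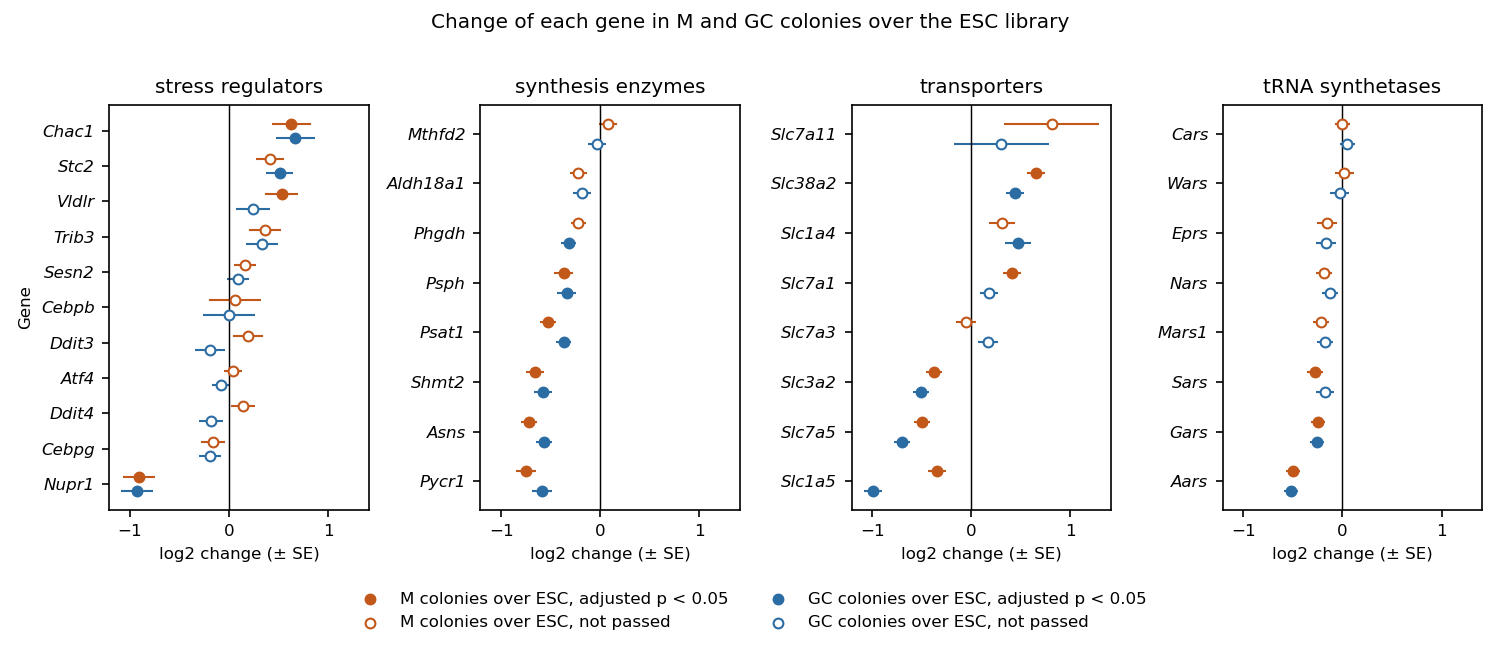
Log2 change of each gene (± SE) in M colonies over ESC (orange) and GC colonies over ESC (blue) by role, with filled points for an edgeR adjusted p under 0.05. Both comparisons use the same ESC library. Enzyme points lie left of 0 except for Mthfd2, transporter points lie on both sides, and the pair of Slc1a5 points is the one most spread apart among genes called in both.

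Of the 8 transporters, 3 fell, 3 rose and 2 did not pass, with a median log2 change of 0.18. Of all genes tested, 7.56% fell and 8.76% rose. Slc7a5 and Slc3a2 encode the light and heavy chains of the LAT1 exchanger, which imports leucine and other large neutral amino acids, and both were lower. Slc7a5 was at 374, 357 and 367 CPM in M colonies, at 328, 329.6 and 295 CPM in GC colonies, and at 518 CPM in ESC. All colonies lay below ESC, with a log2 change of -0.60 ± 0.08 (SE; edgeR adjusted p = 1.36e-04). Slc3a2 was 405 ± 10.8 CPM in M colonies, 371 ± 18.1 CPM in GC colonies (SD, n = 3 each) and 527 CPM in ESC, a log2 change of -0.44 ± 0.07 (SE; edgeR adjusted p = 9.91e-04). Slc1a5, the ASCT2 exchanger that imports glutamine (ENSMUSG00000001918, chromosome 7 from 16781340 to 16798274), was at 182, 201 and 191 CPM in M colonies, at 119, 131 and 117 CPM in GC colonies, and at 244 CPM in ESC. Its 3 groups were separate, with GC colonies lowest and ESC highest, and the log2 change of all colonies over ESC was -0.67 ± 0.08 (SE; edgeR adjusted p = 1.35e-04).

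Transporters with more RNA in colonies were Slc38a2, the SNAT2 sodium-coupled carrier of small neutral amino acids, Slc7a1, the CAT-1 carrier of arginine and lysine, and Slc1a4, the ASCT1 exchanger of serine, alanine and threonine. Slc38a2 was at 419.7, 370.0 and 406 CPM in M colonies, at 329, 340.4 and 361 CPM in GC colonies, and at 253 CPM in ESC. It stood above ESC in all 6 colonies, by a log2 change of 0.55 ± 0.09 (SE; edgeR adjusted p = 8.62e-04). Slc7a1 was 147 ± 4.10 CPM in M colonies, 126 ± 6.80 CPM in GC colonies and 111 CPM in ESC, with a log2 change of 0.29 ± 0.09 (SE; edgeR adjusted p = 0.0360). Slc1a4 was 46.3 ± 4.76 CPM in M colonies, 51.5 ± 2.88 CPM in GC colonies and 37.3 CPM in ESC, with a log2 change of 0.39 ± 0.12 (SE; edgeR adjusted p = 0.0441). Leaving out the same libraries ended the Slc7a1 call (edgeR adjusted p = 0.0879 without GC colony 2, 0.0539 and 0.0650 without either of M colonies 2 and 3, and 0.0988 without both). The Slc1a4 call was lost without GC colony 2 (0.0913) or by limma-voom (0.0612). Slc7a3, the CAT-3 carrier of the same cationic amino acids, did not pass, with 170.5 ± 13.7 CPM in M colonies, 199 ± 8.57 CPM in GC colonies and 177 CPM in ESC. Slc7a11, the cystine importer xCT, had the lowest level of the 35 genes and did not pass, with 1.27 to 1.68 CPM in M colonies, 0.816 to 1.40 CPM in GC colonies and 0.871 CPM in ESC.

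Of the 8 tRNA synthetases, which load amino acids onto their tRNAs, 2 (25%) fell and 6 did not pass, with a median log2 change of -0.18. Of all genes tested, 16.3% were called over ESC and 7.56% fell, and 25.7% lay below ESC in all 6 colonies. Aars, the alanine enzyme, was at 641, 665 and 626 CPM in M colonies, at 626, 637 and 647 CPM in GC colonies, and at 912 CPM in ESC. The 6 colonies were close together and all below ESC, with a log2 change of -0.51 ± 0.06 (SE; edgeR adjusted p = 1.40e-04). Aars shares 1326 exon bases with Exosc6 on the same strand, which had 0 counts, so its counts are uncertain. Gars, the glycine enzyme, was at 590.0, 616 and 589.9 CPM in M colonies, at 599.8, 593 and 593 CPM in GC colonies, and at 712 CPM in ESC. Colonies again lay below ESC, by a log2 change of -0.25 ± 0.07 (SE; edgeR adjusted p = 0.0167), a call lost without GC colony 2 (0.0532). Sars (serine), Nars (asparagine), Eprs (glutamate and proline) and Mars1 (methionine) also stood below ESC in all 6 colonies without passing, with log2 changes from -0.23 (Sars, edgeR adjusted p = 0.0646) to -0.16 (Nars and Eprs). Wars (tryptophan, log2 change 0.00) and Cars (cysteine, 0.02) overlapped ESC. Of the 12 other cytosolic synthetases, 3 (25%) fell (Farsa, Kars and Vars, for phenylalanine, lysine and valine) and 9 did not pass, with a median of -0.14. Farsa was the largest change among them, at 116 ± 3.85 CPM in M colonies, 125 ± 7.42 CPM in GC colonies (SD, n = 3 each) and 158 CPM in ESC. The Kars and Vars calls were lost without both of M colonies 2 and 3 (edgeR adjusted p = 0.0813 and 0.0714), and that of Kars also without GC colony 2 (0.0672).

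Of the 11 stress regulators, 2 rose, 1 fell and 8 did not pass, with a median log2 change of 0.03. The share called was 27.3%, against 16.3% of all genes. Atf4 (ENSMUSG00000042406, chromosome 15 from 80255184 to 80257541) was at 360.4, 337 and 365 CPM in M colonies, at 332, 343 and 309 CPM in GC colonies, and at 345 CPM in ESC. The colonies lay around the ESC value, with a log2 change of -0.02 ± 0.08 (SE; edgeR adjusted p = 0.910). Ddit3, which encodes the stress factor CHOP, was at 25.9, 23.9 and 25.7 CPM in M colonies, at 21.7, 18.2 and 18.1 CPM in GC colonies, and at 22.1 CPM in ESC. The gene shares 68 exon bases with the synthetase gene Mars1 on the opposite strand, which had up to 10250 counts against 846 for Ddit3, so its counts are uncertain. The ESC value lay below every M colony and above every GC colony, and the log2 change over ESC was 0.00 ± 0.14 (SE; edgeR adjusted p = 0.998). Trib3, a pseudokinase that feeds back on Atf4, was at 57.2, 50.0 and 46.2 CPM in M colonies, at 53.0, 55.5 and 41.8 CPM in GC colonies, and at 39.8 CPM in ESC. All colonies were above ESC, GC colony 3 by the least, and the gene did not pass (log2 change 0.35 ± 0.15, SE; edgeR adjusted p = 0.147) except without GC colony 3 (0.0275) or without a filter on low counts (0.0428).

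Chac1, an enzyme that breaks down glutathione and is induced through Atf4, was at 33.3, 29.6 and 27.9 CPM in M colonies, at 31.5, 37.1 and 24.7 CPM in GC colonies, and at 19.5 CPM in ESC. Every colony exceeded ESC, and the log2 change was 0.65 ± 0.19 (SE; edgeR adjusted p = 0.0286). Nupr1, a small stress-induced chromatin protein, was at 29.3, 34.1 and 25.3 CPM in M colonies, at 28.0, 33.1 and 26.4 CPM in GC colonies, and at 55.4 CPM in ESC. It had the largest change of the 35 genes, a log2 change of -0.92 ± 0.14 (SE; edgeR adjusted p = 7.17e-04). Stc2, a secreted glycoprotein, was at 43.3, 43.5 and 36.6 CPM in M colonies, at 41.0, 47.1 and 43.5 CPM in GC colonies, and at 30.9 CPM in ESC. It was higher in all colonies, by a log2 change of 0.46 ± 0.13 (SE; edgeR adjusted p = 0.0259), a call lost without GC colony 2 (0.0568). Sesn2, an inhibitor of mTORC1 that binds leucine, was 150.1 ± 12.7 CPM in M colonies, 143 ± 8.06 CPM in GC colonies and 134 CPM in ESC and did not pass. Cebpb and Cebpg, which encode partners of Atf4, did not pass either, with log2 changes of 0.03 and -0.17. Cebpb shares 312 exon bases with Tmem189 on the opposite strand, so its counts are uncertain.

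**Figure D4:**
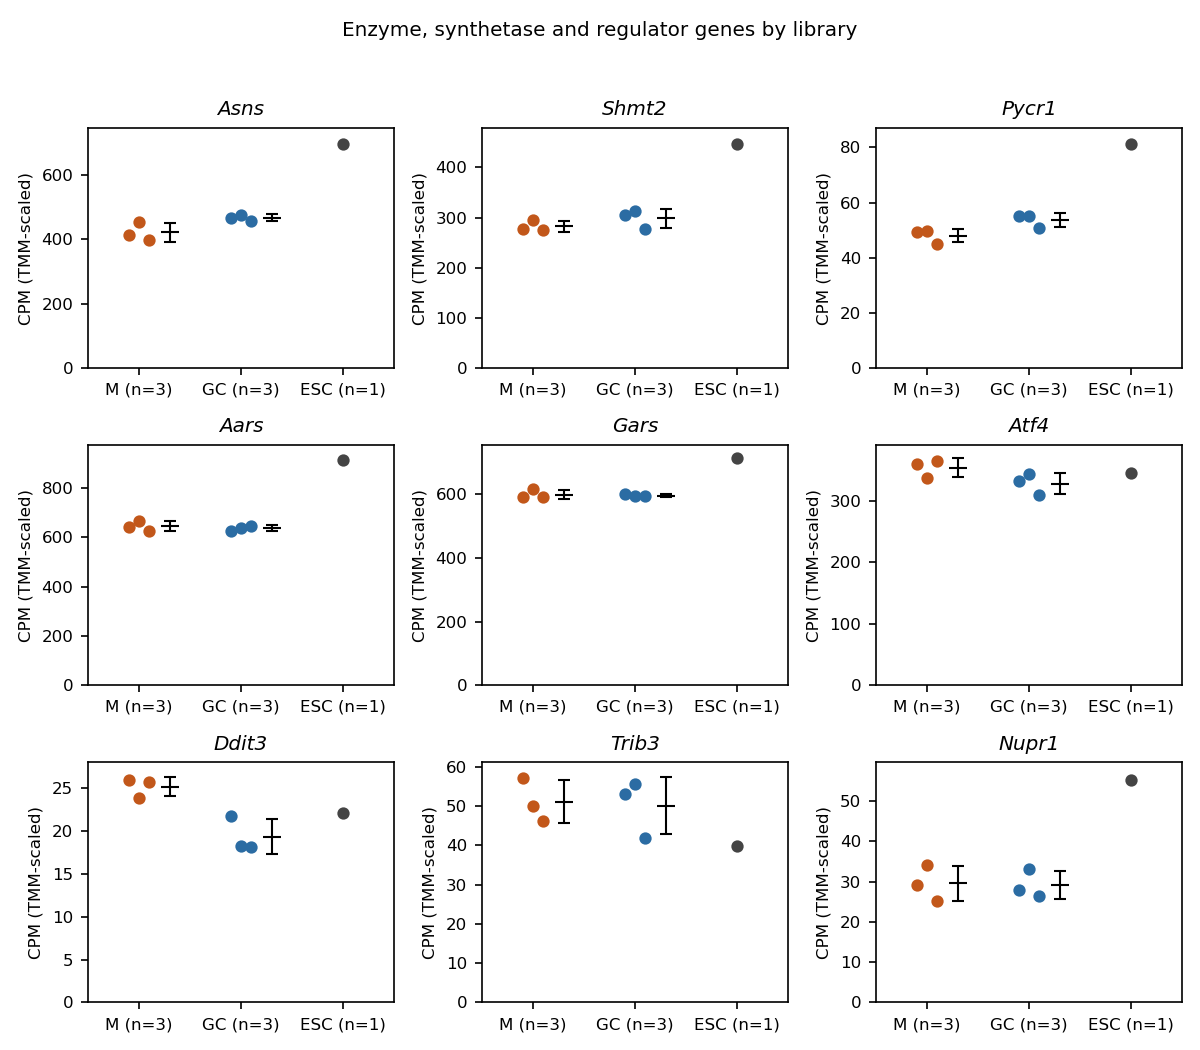
Level in CPM (TMM-scaled, axis from 0) of 9 genes in each library (points), with the mean and SD of the 3 colonies of each kind (bars) and the single ESC library. Asns, Shmt2, Pycr1, Aars, Gars and Nupr1 are higher in ESC than in any colony, and Atf4 is at 309 to 365 CPM in colonies and 345 CPM in ESC.

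Taken separately, each kind of colony showed 16 of the 35 genes past the threshold over ESC, 12 fallen and 4 risen. In M colonies over ESC 16.2% of all genes were called, 7.37% fallen and 8.84% risen. In GC colonies over ESC 13.0% were called, 5.51% fallen and 7.53% risen. The colonies lay wholly on one side of ESC for 29 of the 35 genes in M colonies and 30 in GC colonies, against 69.6% of all genes in M colonies and 68.1% in GC colonies. Both comparisons use the same ESC library, so their likeness is not independent evidence. Asns had a log2 change of -0.72 ± 0.08 in M colonies and -0.57 ± 0.08 in GC colonies (SE), and Slc38a2 one of 0.65 ± 0.09 in M colonies and 0.44 ± 0.09 in GC colonies. Slc1a5 had -0.35 ± 0.09 in M colonies, a call lost without M colony 3 (edgeR adjusted p = 0.0544), and -0.99 ± 0.09 in GC colonies. Phgdh, Slc1a4 and Stc2 passed in GC colonies and not in M colonies, and Sars, Slc7a1 and Vldlr, a lipoprotein receptor, in M colonies and not in GC colonies. The first 3 calls were lost without GC colony 2 (edgeR adjusted p = 0.0682, 0.0972 and 0.0861), and the other 3 without both of M colonies 2 and 3 (0.257, 0.0841 and 0.157). Stc2 was also called in M colonies over ESC by DESeq2, without a filter on low counts and without M colony 3. None of these 6 passed the main edgeR test of M against GC colonies, so that test shows no difference between the kinds of colony for them. Slc7a1 alone of the 6 was called there, as higher in M colonies, by DESeq2 and by edgeR without a filter on low counts. The Chac1 call in M colonies was lost when any 1 M colony was left out (edgeR adjusted p from 0.0549 to 0.0873). That of Psph in GC colonies was lost when any 1 GC colony was left out (0.0503 to 0.0688). Chac1 in GC colonies was lost without GC colony 1 or 2, Psph in M colonies without M colony 2 or 3, and Gars in M colonies without M colony 1 or 3. The M colony calls of Chac1, Psph, Gars and Slc3a2 were also lost without both of M colonies 2 and 3, which leaves 1 M library. Without GC colony 2, 10 genes passed in GC colonies over ESC. Without both of M colonies 2 and 3, 9 passed in M colonies over ESC.

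The study set M against GC colonies by the sort of the starting B cells. Donor and culture history cannot be told apart from that sort, and 2 of the 3 M colonies had 0 counts of the Y-linked genes given above although the labels state male mice. Slc1a5, the glutamine exchanger, rose in M colonies and was the only 1 of the 35 genes to pass. Some other transporters and the regulators Ddit3, Ddit4 and Vldlr also had higher values in all 3 M colonies, without passing the edgeR test. The 8 synthetases among the 35 genes did not separate the groups. The share called, 1 of 35 (2.86%), compares with 3.97% of all 18166 genes tested, where 1.70% rose and 2.27% fell. The median log2 change was 0.02 over the 35 genes and 0.00 over all genes. For 13 of the 35 genes (37.1%) the M and GC values did not overlap, with M colonies higher for 9 and lower for 4, against 22.1% of all genes, 10.1% higher and 12.0% lower.

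Slc1a5 averaged 191 ± 9.57 CPM in M colonies and 122 ± 7.69 CPM in GC colonies (SD, n = 3 each). The lowest M colony, at 182 CPM, was above the highest GC colony, at 131 CPM. The log2 change was 0.64 ± 0.07 (SE), with an edgeR adjusted p of 2.40e-04 that ranged from 3.57e-04 to 0.00334 when any 1 colony was left out. By p-value it ranked 33 of 18166 genes. Without both of M colonies 2 and 3, it was again the only 1 of the 35 called.

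For 6 of the 8 transporters (75%) there was no overlap between M and GC colonies, against 22.1% of all genes. Besides Slc1a5, Slc7a1 (log2 change 0.22 ± 0.06), Slc38a2 (0.21 ± 0.06), Slc7a5 (0.20 ± 0.06) and Slc3a2 (0.12 ± 0.06) were higher in all M colonies, and Slc7a3 (-0.22 ± 0.07, SE) was lower in all, without passing (edgeR adjusted p from 0.0800 to 0.315). Of the 20 other amino acid transporters, 18 were tested of which 2 (11.1%) passed, both higher in M colonies, against 3.97% of all genes. Slc7a8, the LAT2 exchanger that also pairs with Slc3a2, was at 13.1, 9.40 and 15.2 CPM in M colonies, at 5.13, 5.15 and 6.97 CPM in GC colonies, and at 3.89 CPM in ESC. The groups did not overlap, and the log2 change of M over GC colonies was 1.13 ± 0.19 (SE; edgeR adjusted p = 0.00528). Slc7a6, another partner of Slc3a2, rose by 0.42 ± 0.11 (SE; edgeR adjusted p = 0.0487), a call lost when any of GC colonies 1 and 2 or M colonies 1 and 3 was left out (up to 0.247) and by limma-voom. Over ESC, 5 of 19 tested genes of the list rose in colonies and 3 fell, with the largest rises in Slc36a4 (log2 change 1.41 ± 0.25), Slc1a3 (1.25 ± 0.15) and Slc7a8 (1.13 ± 0.28, SE). The Slc7a8 call over ESC was lost by limma-voom (adjusted p = 0.0582), and in GC colonies alone over ESC the gene did not pass (edgeR adjusted p = 0.246). Of all genes, 8.76% rose and 7.56% fell over ESC.

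**Figure D5:**
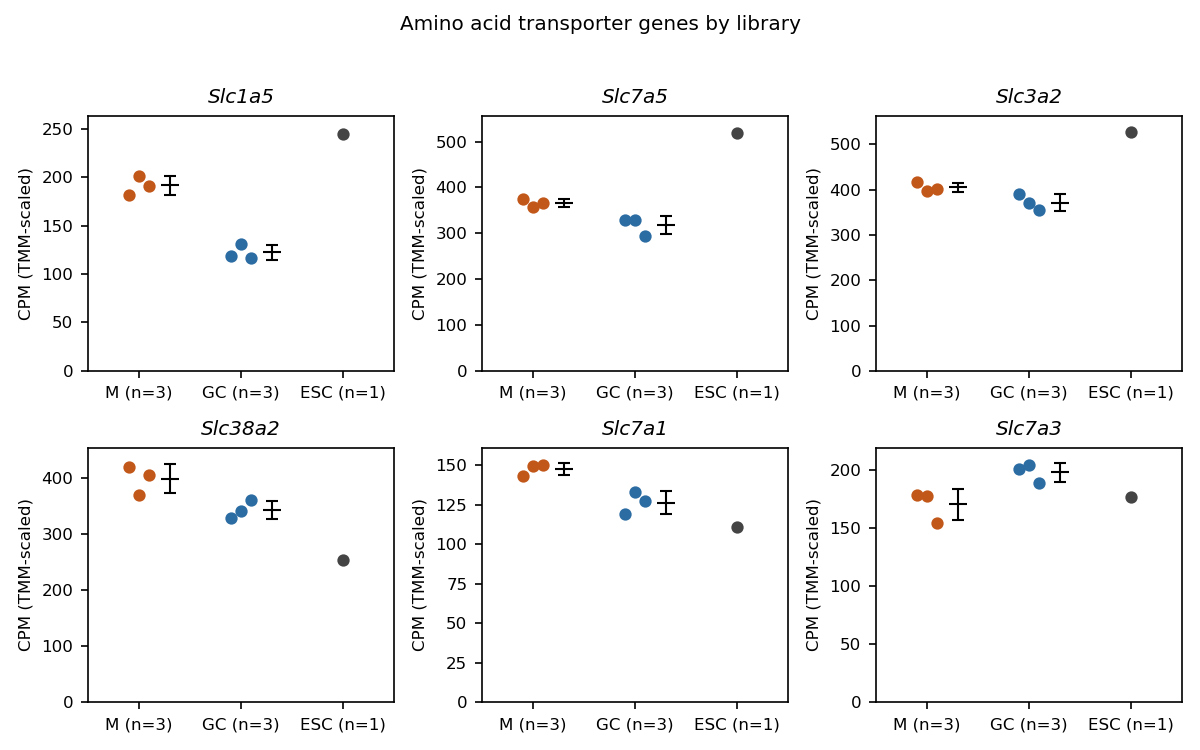
Level in CPM (TMM-scaled, axis from 0) of 6 amino acid transporter genes in each library (points), with the mean and SD of the 3 colonies of each kind (bars) and the single ESC library. Slc1a5 is at 182 to 201 CPM in M colonies, 117 to 131 CPM in GC colonies and 244 CPM in ESC, while Slc38a2 is lowest in ESC.

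Among regulators, Ddit3, Ddit4 and Vldlr were higher in every M colony than in any GC colony. Ddit3 differed by a log2 change of 0.38 ± 0.10 (SE; edgeR adjusted p = 0.0674). Ddit4, the mTORC1 inhibitor also called Redd1, was 355 ± 47.8 CPM in M colonies and 284 ± 12.5 CPM in GC colonies (SD, n = 3 each). The log2 change was 0.32 ± 0.09 (SE; edgeR adjusted p = 0.0614). Its groups were barely separate, with M colony 1 at 300.1 CPM and GC colony 1 at 298 CPM. M colonies 2 and 3 were at 388 and 377 CPM. Vldlr differed by a log2 change of 0.28 ± 0.11 (SE; edgeR adjusted p = 0.224). Ddit3 and Ddit4, with Slc38a2, Slc7a1 and Slc7a5, were called beside Slc1a5 by DESeq2. That fit called 6 of the 35 genes, all risen, and 6.16% of all genes. The same 6 with Slc7a3, which fell, were called by edgeR without a filter on low counts, a setting that called 4.17% of all genes. Asns (-0.15 ± 0.06), Psat1 (-0.16 ± 0.06) and Pycr1 (-0.17 ± 0.07, SE) were lower in every M colony without passing in any of these fits. None of the 8 tRNA synthetases among the 35 genes separated M from GC colonies, and their log2 changes ran from -0.11 (Sars) to 0.05 (Wars). Of the 12 other cytosolic synthetases, none passed, and 2 (16.7%) did not overlap, both lower in M colonies, against 22.1% of all genes. The B cell markers summed lower in every M colony than in any GC colony. Cd37 was the 1 of 10 tested (10%) that passed, a fall of M over GC colonies, where 2.27% of all genes fell. None of 22 tested fibroblast markers passed by edgeR, and 3 had an unadjusted p under 0.05, against 3022 of all 18166 genes. Of the 12 pluripotency markers, 2 (16.7%) passed, both higher in M colonies, where 3.97% of all genes were called and 1.70% rose. The list had no common direction, with 6 log2 changes above 0, 6 below 0 and a median of -0.01. M colonies lay wholly above GC colonies for 2 of the 12 and wholly below for 3, against 10.1% and 12.0% of all genes. Pou5f1 was 491 ± 12.4 CPM in M colonies and 374 ± 3.36 CPM in GC colonies, and Klf4 was 517 ± 51.3 CPM in M colonies and 392 ± 10.0 CPM in GC colonies (SD, n = 3 each; edgeR adjusted p = 0.00120 and 0.00662). The part of these lists in the differences was not tested.

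Upstream of Atf4 stand the eIF2 kinases, the eIF2 phosphatase subunits, eIF2 and its exchange factor eIF2B, and of 16 genes for these, 1 (6.25%) passed in M over GC colonies, against 3.97% of all genes. This was Ppp1r15a, the inducible phosphatase subunit that restores translation, at 94.0, 92.9 and 94.7 CPM in M colonies, at 78.7, 79.8 and 78.7 CPM in GC colonies, and at 80.8 CPM in ESC. The groups did not overlap, and the log2 change of M over GC colonies was 0.25 ± 0.06 (SE; edgeR adjusted p = 0.0423). The call was lost in 5 of the 6 fits that left out 1 colony, all but the one without GC colony 3, with edgeR adjusted p up to 0.197, and without both of M colonies 2 and 3 (0.321). Over ESC, 2 of the 16 (12.5%) passed, both lower in colonies, against 16.3% of all genes. Impact, which restrains Gcn2, had a log2 change of -0.47 ± 0.11, and Eif2s2, the beta subunit of eIF2, one of -0.33 ± 0.06 (SE; edgeR adjusted p = 0.00906 and 0.00265). Eif2ak4, which encodes Gcn2, was at 42.3 to 50.2 CPM in M colonies, 37.4 to 43.0 CPM in GC colonies and 49.1 CPM in ESC, and did not pass in either comparison.

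Another 27 genes known as Atf4 targets were counted beside the 35. In colonies over ESC, 10 fell, 1 rose and 16 did not pass, with a median log2 change of -0.19. The share called was 40.7%, against 16.3% of all genes, of which 7.56% fell and 8.76% rose. The gene that rose was Atf3, a stress-induced transcription factor, at 126, 73.4 and 109 CPM in M colonies, at 67.6, 55.6 and 65.4 CPM in GC colonies, and at 39.1 CPM in ESC. All colonies were above ESC (log2 change 1.04 ± 0.22, SE; edgeR adjusted p = 0.00511). It was also the only 1 of the 27 (3.70%, against 3.97% of all genes) called in M over GC colonies, by 0.71 ± 0.15 (SE; edgeR adjusted p = 0.0206), a call lost when GC colony 2 or either of M colonies 1 and 3 was left out (up to 0.119). The largest falls over ESC were in Gdf15, a stress-induced secreted factor (-0.80 ± 0.20), and Aldh1l2, a mitochondrial folate enzyme (-0.78 ± 0.24, SE). Aldh1l2 was at 3.11 to 4.55 CPM in M colonies, 4.66 to 5.93 CPM in GC colonies and 7.71 CPM in ESC, and its call was lost when either of GC colonies 1 and 2, either of M colonies 2 and 3, or both of the last pair were left out (edgeR adjusted p up to 0.0839).

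Sister colonies were close to one another for most of the 35 genes. The coefficient of variation over 3 colonies had a median of 5.07% in M colonies and 5.26% in GC colonies, and was under 10% for 28 genes in M colonies and 29 in GC colonies. It was lowest for Cars in M colonies (0.959%) and for Gars in GC colonies (0.655%), and highest for Slc7a11 in both (15.0% in M and 28.0% in GC colonies). GC colony 3 had the lowest Trib3, Chac1 and Cebpb of the 6 colonies, at 41.8, 24.7 and 6.37 CPM.

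Per kilobase of exon, a scale on which genes can be ranked against each other, the colony means ran from 0.0935 CPM per kb for Slc7a11 to 191 ± 3.18 CPM per kb for Gars (SD over 6 colonies). Ddit4 followed at 182 ± 28.5, Asns at 163 ± 11.4 and Atf4 at 145 ± 8.66 CPM per kb, and Gars and Ddit4 did not differ beyond their spread. In ESC, Asns was at 254 CPM per kb and Gars at 228. Of the cationic amino acid carriers, Slc7a3 was at 48.8 ± 4.89 CPM per kb in colonies, above Slc7a1 at 11.9 ± 1.10. Lengths are the union of annotated exons, so a gene with long or rare exons, such as Slc7a1, is placed lower.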

How the data were processed

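The deposited table holds raw counts per Ensembl gene for 7 libraries, not normalized. Per the submitters' processing notes, STAR 2.7.10a, featureCounts 2.0.6 and DESeq2 were used with mm10 (GRCm38). The labels name a non-stranded library in one field and a directional kit in another. Whether reads were counted by strand was unknown here. Among counts of 1 to 49, 68.5% to 72.2% were even, so mates of a pair may have been counted one by one. A count of 0 allows up to 3 counts, 0.0832 to 0.101 CPM by library, a floor that covers counting error only.

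Names came from GENCODE M21, which matched 54809 of 54838 genes. A second Ddit3 entry with 0 counts was left out. Counts were filtered with filterByExpr, scaled by TMM, and a quasi-likelihood test (edgeR 4.0.16, two-sided) was run with Benjamini-Hochberg adjustment over all genes tested. CPM are TMM-scaled over all 7 libraries. A standard error is the log2 change over the square root of F. Alternatives were RLE factors, no filter, DESeq2 1.42.0, limma-voom 3.58.1, colonies left out, a colony-number block and a fit of all 7 libraries for M against GC colonies. Values per library are given for Atf4, Asns, Ddit3, Trib3, those of the 35 genes called in M against GC colonies and, per role, the 3 largest changes called over ESC; other lists name at most 3 genes each. Genes and lists were chosen with earlier results of these data known.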

Additional observations from a re-analysis of the deposited data

Results flagged for a closer look

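Slc1a5 differed between the 2 kinds of colony in its change from ESC. Its log2 change over the same ESC library was -0.35 ± 0.09 in M colonies and -0.99 ± 0.09 in GC colonies (SE), and the difference, tested directly as M over GC colonies, was 0.64 ± 0.07 (SE; edgeR adjusted p = 2.40e-04; higher in 3 of 3 M colonies than in any GC colony). No other of the 35 genes met this test.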

How the results depend on the processing

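Of 824 values of named genes under the alternatives, 726 kept their direction and their side of the threshold, 81 lost the call, 7 gained one and 10 changed sign. The ESC group holds 1 library, so its own spread is not measured. In M against GC colonies, 721 genes passed, and 1318 passed without a filter on low counts, 373 without both of M colonies 2 and 3, and 244 (without GC colony 2) to 814 (without GC colony 3) when 1 colony was left out, with 412 without GC colony 1 and 270 without M colony 3. Of the 35 genes, 1 passed, against 7 without the filter, 6 by DESeq2, 4 with the colony number as a replicate block and 1 to 2 when 1 colony was left out. The block called 963 genes in all. Colonies with the same number correlated in their deviations by 0.0569, 0.0566 and 0.130, above every pair with different numbers (-0.0998 to 0.0436). Whether colonies of the same number share a mouse or day was not tested. The labels tie them to none, so the main fit did not take the numbers as pairs. Over ESC, 10 to 17 of the 35 passed in GC colonies when 1 was left out, and 9 in M colonies without both of M colonies 2 and 3, which leaves 1 M library. The only sign changes were in 3 values that passed under none of the alternatives: Trib3 in M over GC colonies (-0.08 to 0.11 over the leave-outs), Atf4 over ESC (-0.04 to 0.00) and Ddit3 over ESC (-0.05 to 0.02 over the leave-outs, 0.00 with RLE factors and by DESeq2, and 0.02 without both of M colonies 2 and 3). Fewer samples were fitted in the leave-outs, and the cause of the other shifts was not tested.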

Other observations

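The endoplasmic reticulum stress response is a neighbouring branch of the stress pathway. Of 21 of its genes, 2 (9.52%) passed in M over GC colonies, against 3.97% of all genes. The log2 change was above 0 for 20 of the 21, against 9195 of all 18166 genes. Its median was 0.15 over the list and 0.00 over all genes. The groups did not overlap for 7 (33.3%), all higher in M colonies, against 22.1% of all genes, 10.1% higher. Hspa5, the main chaperone of the endoplasmic reticulum, was at 806, 735 and 834 CPM in M colonies, at 655, 644 and 705 CPM in GC colonies, and at 836 CPM in ESC (log2 change of M over GC colonies 0.24 ± 0.06, SE; edgeR adjusted p = 0.0479). Pdia3, a disulfide isomerase, was at 646, 548 and 661 CPM in M colonies, at 515, 472 and 527 CPM in GC colonies, and at 441 CPM in ESC (0.29 ± 0.07, SE; edgeR adjusted p = 0.0463). Both calls were lost without GC colony 1, GC colony 2, M colony 1, M colony 3 or both of M colonies 2 and 3 (edgeR adjusted p up to 0.257).

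Of 18 genes of mTORC1 and amino acid sensing, 2 (11.1%) rose in colonies over ESC, where 16.3% of all genes were called. Sesn3, a relative of Sesn2, had a log2 change over ESC of 0.46 ± 0.12 (SE; edgeR adjusted p = 0.0212). Rragd, a Rag GTPase, had one of 0.58 ± 0.19 (SE; edgeR adjusted p = 0.0499), a call lost without GC colony 2 or GC colony 3 (up to 0.0915) and by limma-voom.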
